A study of Rattus norvegicus with 10 samples.

Results

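The genes described here encode the proteins of the cytosolic ribosome, measured in the brain of rats after 1 week of calorie restriction (CR, a reduced food supply). They are the genes whose symbol is Rpl or Rps followed by a digit, Rplp0 to Rplp2 or Rpsa. A gene counted when a probe set, a group of short probes that measures a transcript, carried that symbol alone in the platform annotation. S6 kinases and a binding protein with similar symbols, 7 genes in all, were left out. By this rule 50 genes were found among the 14218 with a probe set of their own, 34 of the large subunit and 16 of the small. They held 57 probe sets, and the brightest one by mean log2 signal stood for each gene.

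Male Wistar rats, an outbred stock, were bought at 5 weeks of age and entered the experiment at 6 weeks. Control rats were given all of the daily intake recorded beforehand, and the others were restricted by 5, 10, 20 or 30% for 1 week. All were fasted for 16 h before the brain was sampled, from the hypothalamus area according to the methods. No group carried an altered gene or a drug. Each group is 1 pool of RNA from 5 rats on 1 Affymetrix Rat Genome array, so no group had a second array, and a pool hides how its rats differed. The 1 month arrays were not used, because their rows do not follow the probe set identifiers (r across rows with the 1 week arrays of 0.036 to 0.052).

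A ribosome joins a small subunit, which holds the mRNA and reads its codons, to a large subunit, which forms the peptide bonds. Each subunit is ribosomal RNA covered by many small proteins, most of them present in a single copy per ribosome, so their genes are usually expressed at matched and high levels. Their mRNAs typically begin with a run of pyrimidines, the terminal oligopyrimidine (TOP) tract, through which the nutrient-sensing kinase mTOR controls their translation. Cells that lack amino acids or growth factors slow the translation of these mRNAs and the making of ribosomes.

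The start regions of 7 of the genes whose values stand out below are shown for this reason, *Rpl4* and *Rpsa*, which fell, and *Rpl21*, *Rpl22*, *Rpl41*, *Rps28* and *Rpl26l1*, which rose. Each is the window of 20 bases before to 20 after the start annotated by RefSeq on GRCr8, on the transcribed strand and 5′ to 3′, with the longest run of C and T in capitals.
Rpl4, chr8:73566457-73566496, plus strand: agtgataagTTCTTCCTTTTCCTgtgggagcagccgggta
Rpsa, chr8:128728859-128728898, plus strand: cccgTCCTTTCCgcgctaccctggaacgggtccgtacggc
Rpl21, chr12:13386134-13386173, minus strand: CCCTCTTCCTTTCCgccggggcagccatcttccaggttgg
Rpl22, chr5:168117941-168117980, plus strand: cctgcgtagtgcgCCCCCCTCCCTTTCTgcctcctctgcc
Rpl41, chr7:1563478-1563517, minus strand: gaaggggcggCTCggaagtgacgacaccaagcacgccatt
Rps28, chr7:15311314-15311353, minus strand: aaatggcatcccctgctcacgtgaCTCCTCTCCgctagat
Rpl26l1, chr10:17029009-17029048, minus strand: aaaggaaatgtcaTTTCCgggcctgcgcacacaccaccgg
The run had 14 letters in *Rpl4* and 14 in *Rpl21*, and 3 in *Rpl41*. The run of *Rpl21* begins at the first base of its window, so it may be longer than 14 letters, and it ends before the annotated start. A run of at least 8 such letters lay in this window in 28 of the 43 members with an entry, 65.1%, and in 15.5% of all 27457 start regions. It lay in 16 of the 23 members that rose, in both that fell and in 7 of 14 that did not pass the test. The letters CCGGAA, the core bound by ETS factors, were found on either strand between 100 bases before and 50 after the start in 15 of the 43 members, against 10.9% of all start regions. TATAAA was found on either strand in the 250 bases before the start in 6 of 43, against 13.1%. The windows rest on annotated starts, which can lie some bases from the start used in brain.

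Before the results, the arrays themselves must be described, since the control array stood apart. On it 24.0% of probe sets read less than 10, against 11.7 to 14.4% on the CR arrays, and its correlation with the CR arrays was 0.852 to 0.874 against 0.912 to 0.922 among them. The 24 probe sets of the poly-A control RNAs were all brighter on it, by a median log2 of 1.23, whereas the later hybridization controls were not (6 of 16 brighter, median -0.10). The log2 ratio of 3′ to 5′ signal, a measure of how complete the labelled RNA is, was lower on it for GAPDH (0.19 against 0.40 to 0.79) and for actin (1.90 against 2.19 to 2.80). With 1 control array, what belongs to the diet and what belongs to that pool or array cannot be told apart. The fit assumes that the control varies as the CR arrays do.

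The first comparison asked which ribosomal protein genes differed between the 4 CR arrays and the control array. Of the 50 genes, 44 passed the filter on low signal, 30 large and 14 small. In limma, with Benjamini-Hochberg adjustment over all 15521 probe sets tested, 25 rose and 2 fell with CR, and 32 had an unadjusted p under 0.05. The background is high, since 14.5% of all probe sets tested were called higher and 11% lower. Over the 9479 named genes tested, each by its brightest probe set, the shares were 11.6% and 11.3%, with a median change of -0.02. Among the 44 genes 56.8% were called higher and 4.55% lower. The median change of the 44 was 0.37 on the log2 scale, against 0.03 over all probe sets tested. All 4 CR arrays lay above control for 32 genes and all 4 below for 5, where 37.1% and 33.1% of all probe sets did so. The 25 that rose did so by 1.24 to 2.83-fold.

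The direction of the family as a whole depended on the scaling of the arrays. As deposited the medians were 0.36 for large and 0.40 for small subunit genes, and with each array centred on its median log2 signal they turned to -0.08 and -0.03, with 5 genes called higher and 11 lower. That centring moved the median of all probe sets by -0.44. The share of all probe sets called under it is not given here, so no count with median scaling, here or below, has a background beside it. The centring takes 1 value per array from every probe set, so it cannot change how the members stand to all probe sets. In both cases they therefore lay 0.34 higher, with 36 of 44 above the median of all. After quantile scaling the members were 0.15 above it and 28 of 44 lay over it, and after cyclic loess 0.22 and 31. No member called in 1 direction as deposited was called in the other under any of these scalings.

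**Figure D1:**
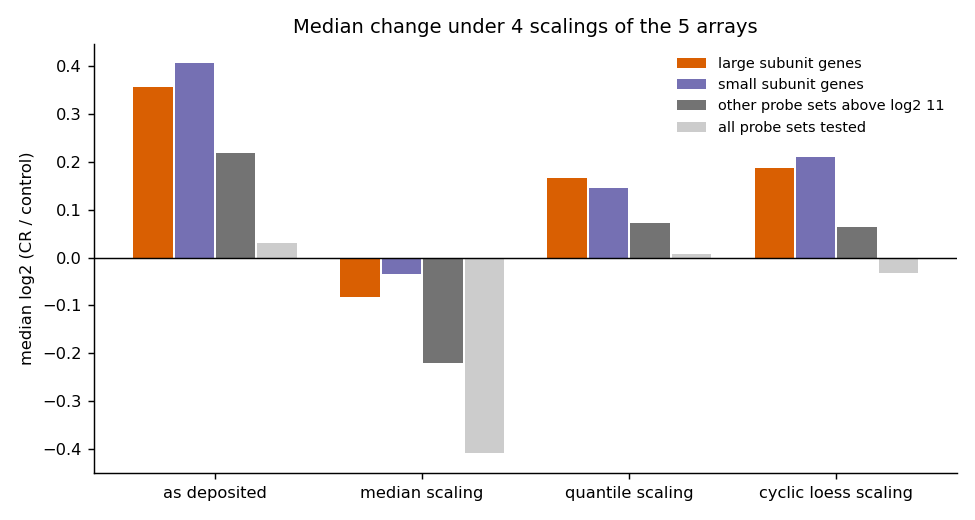
Median log2 ratio of CR to control (vertical axis, 4 CR arrays averaged) of the 30 large and 14 small subunit genes, of 444 other probe sets whose mean log2 signal exceeded 11, and of all 15521 probe sets tested, under 4 scalings. The subunit bars change sign with median scaling, -0.08 and -0.03 against 0.36 and 0.40 as deposited, and lie above the bar of all probe sets in each scaling.

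Signal strength also moved with the result. Ribosomal protein mRNAs are among the brightest on the array, and 38 of the 50 members had a mean log2 signal above 11. Of these 38, 23 were called higher and 2 lower, with a median of 0.37. Among 444 other probe sets above the same cut, 37.2% were called higher and 11.3% lower, with a median of 0.22. Most of these were dimmer than most of the members. The 304 with a mean log2 signal near 11.4 had a median change of 0.15. The 119 near 12.4 and the 21 near 13.3, where most of the 38 members lay, each had a median of 0.34. The part of signal strength in the members' change was not tested. A further 36 probe sets carried several symbols, at least 1 of them a ribosomal protein gene, and no gene is named from them. Of 35 tested, 27 rose and 0 fell (29 with an unadjusted p under 0.05), with a median of 0.53.

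**Figure D2:**
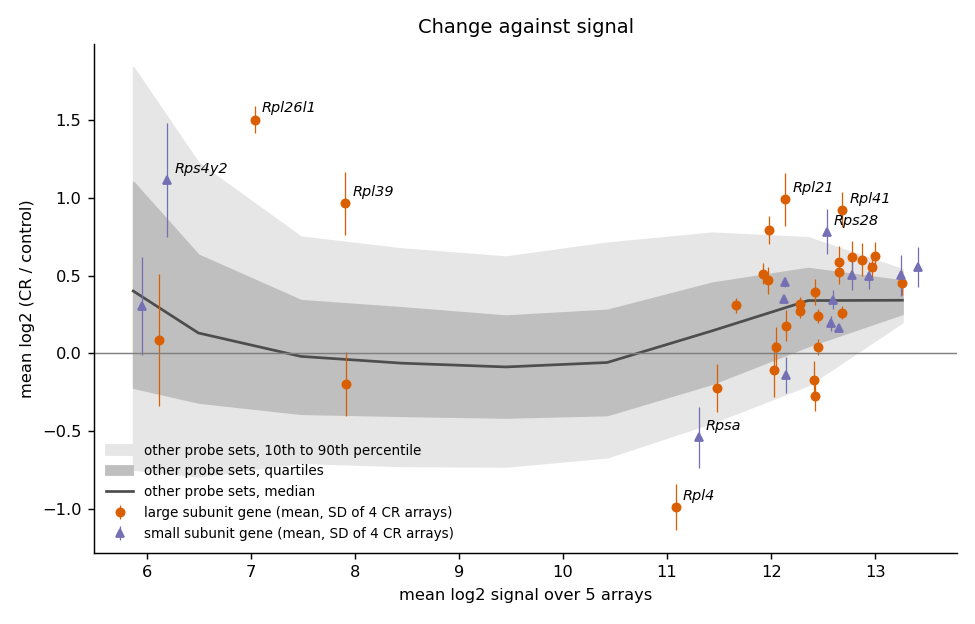
Mean log2 ratio of CR to control against mean log2 signal over the 5 arrays. Points are the 44 tested members with the SD of the 4 CR arrays, and the bands are quartiles and the 10th to 90th percentiles of the other probe sets tested. Most members lie at the bright end, where the median of the other probe sets is also above 0. Rpl4 (-0.99) and Rpsa (-0.54) lie below the bands. Among the members above the bands are Rpl21 (0.99), Rpl41 (0.92), Rpl22 (0.79) and Rps28 (0.78), and at lower signal Rpl26l1 (1.50) and Rpl39 (0.96).

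*Rpl4*, a large subunit protein that lines the tunnel through which the new chain leaves, fell. Its signal was 3748 on the control array and 1940, 1781, 1720 and 2158 on the 5, 10, 20 and 30% arrays. All 4 CR arrays lay far below control and close to each other. The change was -0.99 ± 0.15 (SD of the 4 CR arrays, n = 4), with an adjusted p of 0.000963 in limma. It was the member with the largest fall, it passed under every setting run, and its change ranged from -1.42 to -0.94.

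*Rpsa*, a protein of the small subunit that is also known as the laminin receptor, fell less. Its control signal of 3404 compared with 2473, 2204, 2014 and 2748 on the CR arrays. The groups did not overlap, but the 30% array came nearer to control than the other CR arrays did. The change was -0.54 ± 0.20 (SD, n = 4; limma adjusted p = 0.0297). Without the 10% array the adjusted p was 0.0537, and the spread without an intensity trend gave 0.134. The other two probe sets of this gene changed by -0.21 and 0.00 and did not pass.

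Among the large subunit genes that passed, *Rpl26l1* had the largest rise. It is a paralog of *Rpl26* and nearly identical to it in protein. Its signal was 57.1 on the control array and 165.4, 151.1, 158.2 and 173.6 on the CR arrays. The change of 1.50 ± 0.09 (SD, n = 4; limma adjusted p = 0.00188) was 2.83-fold, at a low signal where MAS5 values are noisy. *Rpl26* itself, which also binds the p53 mRNA, went from 7609 to 10056, 11015, 10801 and 9837, a change of 0.45 ± 0.08 (adjusted p = 0.00835). Its call was lost after median scaling (change 0.015, adjusted p = 0.918), quantile scaling (0.16, 0.105) and cyclic loess (0.18, 0.127), and without an intensity trend (0.103). *Rpl26l1* kept its call in these 4 settings. The difference between the paralogs was not tested.

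*Rpl21*, which binds rRNA of the large subunit, had 2600 on the control array and 4495, 5059, 6001 and 5215 on the CR arrays. Each CR array was above control by 0.79 or more on the log2 scale. The change was 0.99 ± 0.17 (SD, n = 4; limma adjusted p = 0.00115). *Rpl41*, the smallest ribosomal protein, went from 3946 to 7148, 7923, 8053 and 6859. This was a change of 0.92 ± 0.11 (adjusted p = 0.000604), the smallest adjusted p among the members. *Rpl22*, which also binds RNA outside the ribosome, went from 2602 to 4370, 4898, 4527 and 4261, a change of 0.79 ± 0.09 (adjusted p = 0.000912). In these 3 genes the control lay below every CR array. The CR arrays differed more among themselves for *Rpl21* (SD 0.17) than for *Rpl41* (0.11) and *Rpl22* (0.09).

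*Rpl39*, a tiny protein of the exit tunnel, rose by 0.96 ± 0.20 from a control signal of 140.7 to between 233.6 and 327.4 (limma adjusted p = 0.00958), with the call lost under median scaling (0.53, adjusted p = 0.0674). *Rpl27a*, *Rpl23a* and *Rpl35*, the last 2 of which surround the tunnel exit, changed by 0.62, 0.62 and 0.60. These also lost the call with median scaling, where their changes were 0.19, 0.18 and 0.16 and adjusted p was 0.156 to 0.236, and without an intensity trend in the spread (0.0522 to 0.0608).

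In the small subunit *Rps28*, near the mRNA exit channel, rose most among genes that passed. Its signal was 3843 on the control array and 6178, 7141, 7247 and 5959 on the CR arrays. The change was 0.78 ± 0.14 (SD, n = 4; limma adjusted p = 0.00213). *Rps29*, a zinc-binding protein of the head, went from 8008 to 11148, 12724, 12687 and 10698, a change of 0.56 ± 0.13. *Rps15a*, *Rps23*, *Rps24* and *Rps15* changed by 0.50, 0.50, 0.50 and 0.46. Of these, *Rps23* lies at the decoding centre, and *Rps24* and *Rps15* are needed for the maturation of the small subunit. With median scaling none of the 5 genes after *Rps28* was called, and their changes were 0.02 to 0.12. Without an intensity trend none of the 5 was called either, *Rps15a*, *Rps23* and *Rps24* were not called after quantile scaling, and *Rps29*, *Rps23* and *Rps24* not after cyclic loess.

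Genes that share a role gave mixed values. *Rpl5* and *Rpl11* carry the 5S rRNA into the large subunit and bind Mdm2 when ribosome assembly fails. *Rpl5* had 5975 on the control array and 5307, 5366, 4751 and 5871 on the CR arrays, and its change of -0.17 ± 0.13 did not pass (limma adjusted p = 0.317). *Rpl11* rose from 4151 to between 5062 and 5415, by 0.32 ± 0.04 (adjusted p = 0.0314). The control lay above every CR array for the first and below every one for the second. *Rpl5* was called lower and *Rpl11* not called after quantile scaling (-0.51 and 0.10), so the call for each depended on the scaling. That of *Rpl11* was also lost without the 10% array (adjusted p = 0.0644) and without the 5% array (0.0662). A control probe set for 5S rRNA itself read 57.4 on the control array and 98.5 to 187.4 on the CR arrays, a change of 1.19 ± 0.42 (SD of the CR arrays). This signal is low, and the probe set, as an array control, was left out of the tests.

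*Rplp0*, which anchors the stalk that recruits elongation factors, changed by -0.22 ± 0.15 (limma adjusted p = 0.251). *Rpl3*, at the peptidyl transferase centre, had 6388 on the control array and 4968 to 5602 on the CR arrays. All 4 were lower, but the change of -0.27 ± 0.09 did not pass (adjusted p = 0.0866). It passed after quantile, cyclic loess and median scaling. *Rps3*, at the mRNA entry and also a DNA repair protein, changed by -0.14 ± 0.12 (adjusted p = 0.412). With median scaling only, *Rplp0* and *Rps3* were called lower, with changes of -0.66 and -0.58. *Rps6*, the substrate of the S6 kinases below mTOR, went from 5113 to 6199, 6807, 6634 and 6382. It rose by 0.35 ± 0.06 (adjusted p = 0.024), with the call lost after quantile scaling and cyclic loess and without the 10% array (0.0504), and a change of -0.09 with median scaling. *Rps27l*, a p53-responsive paralog of *Rps27*, changed by 0.31 ± 0.31 at signals of 48.2 to 76.6 (adjusted p = 0.628). Of the role genes of interest 9 had no probe set to themselves, among them *Rpl10*, *Rplp1*, *Rplp2*, *Rps14*, *Rps19* and *Rps27a*, and are not described.

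**Figure D3:**
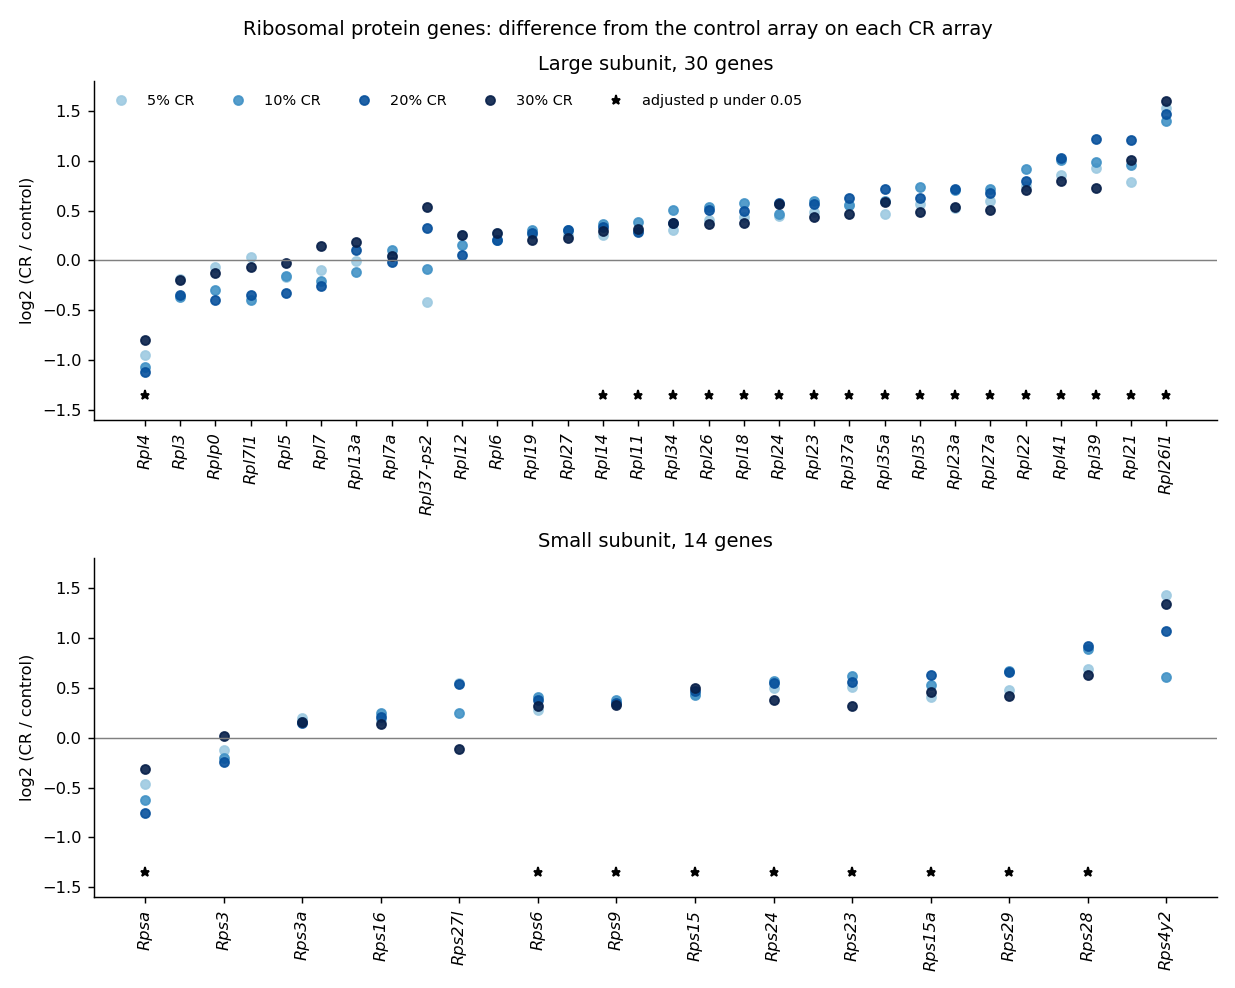
Log2 ratio to the control array (vertical axis) of each tested member on each CR array, in order of the mean change, 30 large subunit genes above and 14 small subunit genes below. Stars mark an adjusted p under 0.05 (limma). The 4 CR points of a gene mostly lie close together, and Rpl4 and Rpsa are the starred genes below 0.

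Of the 17 members that did not pass, 11 had a change above 0 and 6 below, from -0.27 to 1.12. The highest was *Rps4y2*, a copy of the *Rps4* family, at 39.5 on the control array and 60.4 to 106.8 on the CR arrays (change 1.12 ± 0.37, limma adjusted p = 0.0648). Just short of the threshold stood *Rpl27* (0.27, adjusted p = 0.0564) and *Rpl19* (0.26, adjusted p = 0.0584). The 6 members below the filter were *Rpl28*, *Rpl30*, *Rpl39l1*, *Rpl3l*, *Rps13* and *Rps4x-ps1*. Their signals were 0.8 to 81.1 over the 5 arrays and no test was made. *Rpl3l*, a paralog of striated muscle, read 2.4 to 12.7, near background. RefSeq placed 48 of the 50 genes on 15 chromosomes, with at most 10 on any of them.

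The subunits did not differ in a stable direction. In the large subunit 17 of 30 rose and 1 fell, and in the small subunit 8 of 14 rose and 1 fell. On the 5, 10, 20 and 30% arrays the median of large subunit genes was 0.30, 0.42, 0.36 and 0.37 above control. That of small subunit genes was 0.43, 0.42, 0.51 and 0.32. The large minus small difference was -0.06 ± 0.10 (SD, n = 4), from -0.15 to 0.05, so its sign differed between arrays. The 4 values share 1 control array. As deposited the medians of all probe sets tested on these arrays were 0.03 to 0.05. With median scaling the large subunit medians on these arrays were -0.15, -0.02, -0.12 and -0.01. The small subunit medians were then -0.03, -0.02, 0.03 and -0.05, and the median change of all probe sets tested was -0.41.

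The second comparison asked whether the genes followed the level of restriction among the 4 CR arrays, without the control. In limma with CR percent as a covariate, 0 members passed and 0 had an unadjusted p under 0.05. Of all probe sets tested 0% were called, with 743 at an unadjusted p under 0.05. With the control entered as 0% the count was also 0. Slopes of the members ran from -0.20 to 0.37 log2 units per 10 percentage points of CR, with a median of -0.01. The steepest positive slopes were those of *Rpl37-ps2*, a pseudogene of a large subunit protein (0.37 ± 0.17, SE), and *Rpl13a*, which also silences inflammatory mRNAs (0.10 ± 0.05). The steepest negative ones were *Rps27l* (-0.20 ± 0.19) and *Rps23* (-0.08 ± 0.06). Only 2 residual degrees of freedom were left, so small slopes were not detectable. Each CR array set against the other 3 gave 0 members called, with 0, 0, 1 and 3 at an unadjusted p under 0.05. In 27 of the 44 genes the 10 or 20% array stood highest against control, and the 5 or 30% array in the others.

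A further feature was chosen after the values were seen. The numbers in these symbols come from the order of the proteins on gels, so low numbers tend to mark larger proteins. Leaving out pseudogenes and paralogs whose symbols end in l or l1, 38 tested members carried a number. The 11 with a number below 10 had a median change of 0.04, with 2 called higher and 1 lower, and 6 of 11 above 0. The 27 numbered 11 to 41 had a median of 0.50, with 22 called higher and 0 lower, and all 27 above 0 as deposited. Across the 38 genes, which share arrays and are not independent, Spearman's rho between number and change was 0.69 (Pearson's r 0.62). It was 0.79 over 26 large and 0.55 over 12 small subunit genes. *Rps4y2* (1.12) lay apart from the other low numbers. Without it, as chosen after seeing the data, rho was 0.80 over 37 genes and the 10 lower-numbered genes had a median of -0.03.

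The gap between these groups differed between CR arrays and moved with the 3′ to 5′ ratios. The median of the higher-numbered minus the lower-numbered genes was 0.29 on the 30% array, 0.42 on the 5%, 0.46 on the 10% and 0.58 on the 20%, each against the same control. GAPDH 3′ to 5′ log2 ratios on these arrays were 0.40, 0.51, 0.74 and 0.79, in the same order, and the control had 0.19. For actin they were 2.19, 2.31, 2.80 and 2.46. The number also ordered the genes among the CR arrays with no control used. Against the mean of the other 3, rho over the 38 genes was 0.57 on the 10% array and 0.74 on the 20%, and -0.58 on the 5% and -0.75 on the 30%. These values depend on each other, because every array also enters the means against which the others are set. The arrays with the higher 3′ to 5′ ratios thus had the relatively higher signals of high-numbered genes. The part of RNA completeness in the members' values was not tested, and transcript lengths were not used here.

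**Figure D4:**
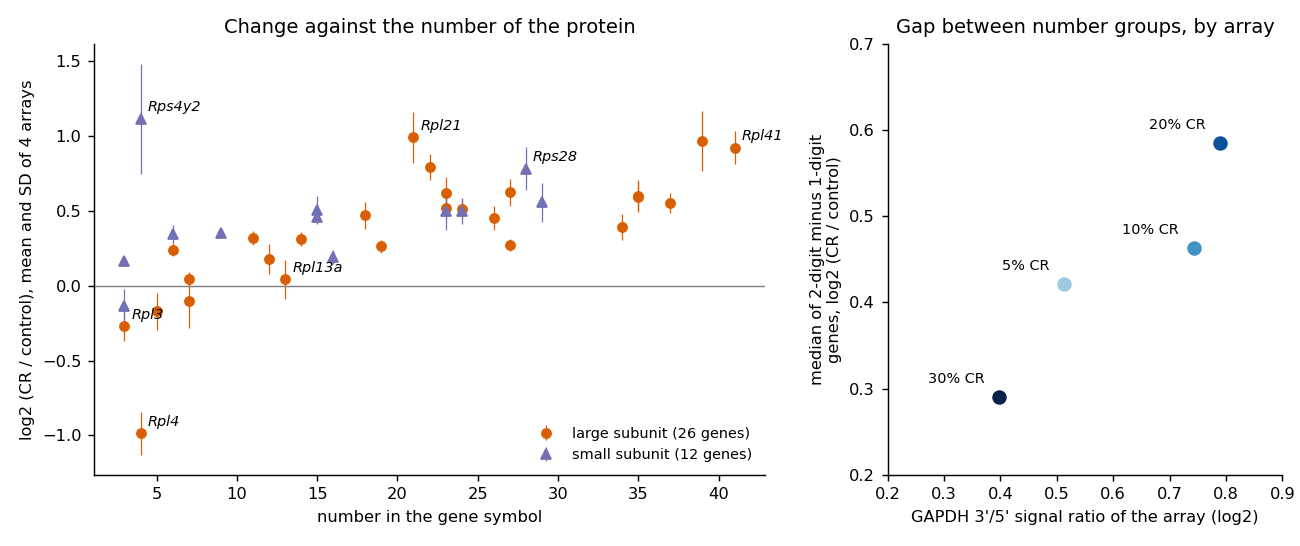
Left, mean log2 ratio of CR to control with the SD of the 4 CR arrays against the number in the gene symbol, for 26 large and 12 small subunit genes. Right, for each CR array, the median of genes with a 2-digit number minus that of genes with 1 digit, against the log2 3′ to 5′ signal ratio of GAPDH on that array. Changes rise with the number, and the gap rises from 0.29 on the 30% array to 0.58 on the 20% array in the order of the ratio.

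Probe sets of the same gene did not always move alike. For *Rpl7*, an rRNA-binding protein of the large subunit, the brightest probe set had 4428 on the control array and 3719 to 4901 on the CR arrays, a change of -0.10 (limma adjusted p = 0.637). Its second probe set read 59.4 on the control array and 285, 572.8, 612.3 and 226.4 on the CR arrays, a change of 2.71 ± 0.72 (SD, n = 4; adjusted p = 0.00332). *Rpl7l1*, a paralog of *Rpl7*, changed by -0.20 on the brightest and by -0.80 on the second probe set, where it passed (adjusted p = 0.0138). For *Rpl3* the second probe set, which can read related transcripts, changed by 0.42 ± 1.00 at signals of 61.9 to 279.5. The values therefore belong to a probe set, and genes with many processed pseudogenes, as these have, may share signal with them.

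**Figure D5:**
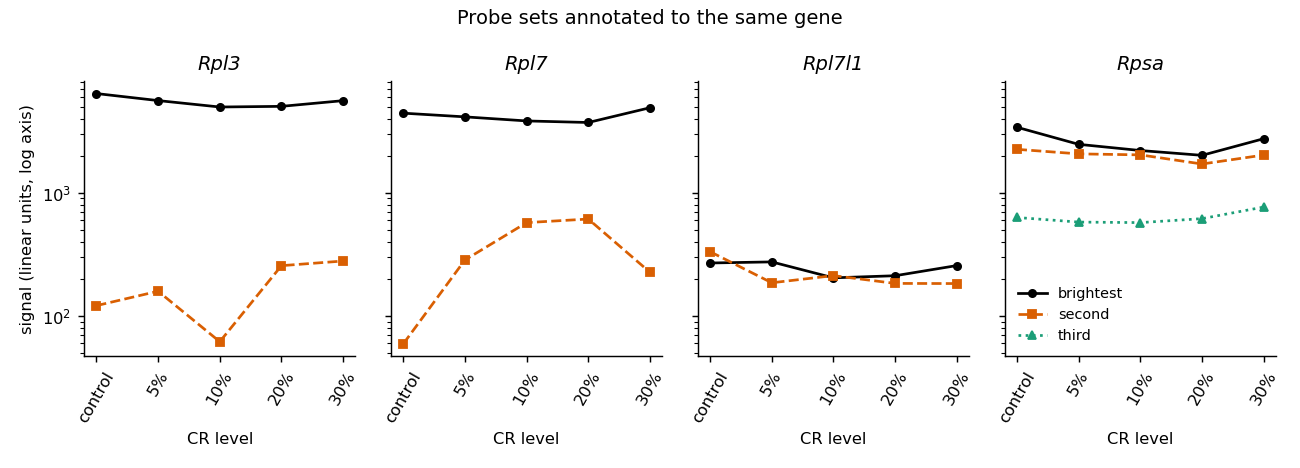
Signal (linear units on a log axis) of every tested probe set on the control and the 4 CR arrays, for the 4 members with more than 1 tested probe set. The brightest Rpl7 probe set stays between 3719 and 4901 while the second goes from 59.4 to as much as 612.3, and the 3 Rpsa probe sets differ in the size of the change.

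The other genes of protein synthesis, from lists of their own, did not move as the ribosomal proteins did, though no difference between lists was tested. Of 10 other TOP transcripts tested, 2 rose and 3 fell, 20.0% and 30.0%, with a median of -0.36. Over all probe sets tested the shares were 14.5% and 11%. With median scaling 1 of the 10 rose and 8 fell (median -0.80). *Eef1a1*, the elongation factor that delivers tRNA, fell by 1.02 on the log2 scale and *Eef1g*, a subunit of its exchange factor, by 0.95. *Hnrnpa1*, a splicing factor, rose by 1.22. All 3 kept their direction and call under the other scalings. *Rack1* is a scaffold on the small subunit and the 1 other ribosome component with a probe set of its own. It fell by 0.62 (limma adjusted p = 0.0442), with the call lost without the 10% array (0.0749). It was called in 11 of 13 settings.

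Of 30 ribosome biogenesis genes 5 rose and 3 fell, 16.7% and 10.0%, with a median of 0.03. The shares were 14.5% and 11% over all probe sets, and 11.6% and 11.3% over named genes by their brightest probe set. With median scaling 1 rose and 9 fell. *Nop2*, an rRNA methyltransferase, rose by 1.28 and *Ftsj3*, another, by 1.11, and *Sbds*, which helps release Eif6 from new large subunits, fell by 1.35. Of 8 genes of RNA polymerase I, which makes rRNA, 3 rose and 0 fell, 37.5% and 0%, with a median of -0.10. Those that rose were *Polr1a*, its largest subunit (1.43), *Ubtf*, an rDNA factor (1.13), and *Taf1d* (0.58). *Polr1a* was not called under the other scalings (adjusted p = 0.0519 to 0.133), nor *Taf1d*, *Ftsj3* and *Pdcd4* with median scaling, nor *Taf1d* without the 5% array (0.0544). With median scaling 1 of the 8 rose and 3 fell. Of 13 genes of mTOR control, 3 rose and 2 fell, 23.1% and 15.4%, and with median scaling 1 and 5. Of these, *Pdcd4* was called in 11 of 13 settings. *Larp1*, which binds the TOP tract, rose from 628.5 to between 1360 and 1793, by 1.35 ± 0.17 (limma adjusted p = 0.000399), *Pdcd4*, an inhibitor of initiation, rose by 0.97, and *Eif4e*, which binds the mRNA cap, fell by 0.66.

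Of 73 mitochondrial ribosomal protein genes, which serve the separate ribosome of mitochondria, 12 rose and 6 fell, 16.4% and 8.22%. Their median was 0.00. All probe sets gave 14.5% and 11%, and named genes by their brightest probe set 11.6% and 11.3%. The largest changes in this list were *Mrps9* (-1.58), *Mrps31* (-1.29) and *Mrpl42* (1.26). *Mrps31* was called in 11 of the 12 settings in which it was tested. With median scaling, which moved the median of all probe sets by -0.44, 4 rose and 28 fell.

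Markers of other cells were measured beside these genes. In pooled tissue, fewer cells of a type and less RNA per cell cannot be told apart. Markers of hypothalamic neurons summed to 20599 on the control array and 22045 to 24397 on the CR arrays, and 2 of 10 tested rose and 1 fell. Their signals were uneven. *Pmch* was the strongest on the control array at 7157, while *Crh* read 52.2 to 79.6, and *Pomc*, below the filter, 2.6 to 14.8. Neuronal markers summed to 19593 on the control array and 18038 to 19528 on the CR arrays (2 rose and 2 fell of 9). Oligodendrocyte markers summed to 26028 and to 23753 to 25806 (0 rose and 4 fell of 9). Pituitary markers summed to 1018 and to 2183 to 3037, and 3 of 3 tested rose, *Tshb*, *Lhb* and *Cga*, by 2.26, 1.61 and 1.18. Another 7 of that list were below the filter, among them *Prl* at 0.6 to 29.8. Astrocyte, microglial, endothelial, choroid plexus, blood and meningeal lists had 1, 1, 1, 1, 0 and 1 genes that rose and 1, 0, 1, 1, 0 and 1 that fell, of 7, 7, 7, 3, 2 and 8. These marker counts are as deposited, where 14.5% of all probe sets tested were called higher and 11% lower. With median scaling more genes fell, 6 astrocyte, 6 meningeal, 5 neuronal, 8 oligodendrocyte and 4 hypothalamic ones, and 0, 0, 0, 0 and 1 rose, while the 3 pituitary genes still rose. The part of these cells in the ribosomal protein values was not tested.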

How the data were processed

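Signals of 5 arrays of rat brain at 1 week were used, 1 control and 4 CR arrays. The deposited values are signal intensity on a linear scale for each probe set and array, and the authors' processing notes name MAS5, which weighs perfect-match against mismatch probes and scales each array. MAS5 values near background are noisy after taking logs, and detection calls were not used. Of 31099 probe sets, 57 array controls were left out of tests. Signals were taken as log2 with no pseudocount, 4 values of 0 being set to 0.1, and probe sets whose mean log2 exceeded the 50th percentile were tested. limma 3.58.1 in R 4.3.3 (lmFit, and eBayes with an intensity trend) compared the 4 CR arrays with the control, with 3 residual degrees of freedom, and fitted CR percent over the 4 CR arrays, with 2. Benjamini-Hochberg adjustment covered all probe sets tested, with a threshold of 0.05. A p-value reflects the spread between pools at different CR levels, so no dose has a replicate, and the number of arrays limits the precision. The fit was tried on simulated data in which the control array had the mean and spread of the CR arrays. Such data could not show how often the fit calls genes when the control array stands apart, as it did here. Counts were made in Python 3.11.15 with pandas 2.3.3, and ranks with scipy 1.17.1.

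The members and gene lists were chosen with earlier results of these data known. Named members were those in the rarer direction, the 8 large and 6 small subunit genes with the largest change in the other, a list of genes by role, the 2 steepest slopes of each sign, and the 3 genes whose probe sets differed most. Up to 3 called genes with the largest change were named from each other list. Genes named outside this rule were chosen after their values were seen. Of the members, 48 were found by Entrez identifier in RefSeq (GRCr8), and 43 had a start region matched by symbol. Alternatives were median, quantile and cyclic loess scaling, no filter or a cut at the 75th percentile, 13.7 added to every signal, eBayes with no trend or with robust fitting, omission of each CR array, other choices of probe set and members, each CR array against the others, and the control as 0%. The comparison with other bright probe sets and the probe sets with several symbols were added after the data were seen.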

Additional observations from a re-analysis of the deposited data

How the results depend on the processing

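Calls depended most on the scaling and on the variance model. For members higher and lower, as deposited 25 and 2, the counts were 5 and 11 with median scaling, 15 and 4 with quantile scaling, 16 and 4 with cyclic loess, and 6 and 1 without an intensity trend in eBayes. The share of all probe sets called in these 4 settings is not given here, so these counts have no background beside them. Of the 25 that rose, 5, 15, 16 and 6 kept the call in these 4 settings, and *Rpl4* kept it in all. *Rpl21*, *Rpl22*, *Rpl41* and *Rps28* rose and *Rpl4* fell past the threshold in all 13 settings, and *Rpl26l1* rose in the 12 in which it was tested. Leaving out each CR array gave 23 to 26 higher and 1 to 2 lower, the 1 without the 10% array. The second brightest probe sets, 4 tested, gave 1 higher and 1 lower, the probe sets with several symbols 0 lower, and each CR array against the other 3 gave 0 and 0. The trend stayed at 0 in every setting run.

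The medians of large and small subunit genes turned from 0.36 and 0.40 to -0.082 and -0.034 with median scaling, and were 0.17 and 0.15 with quantile scaling and 0.19 and 0.21 with cyclic loess. Without a filter the large median was 0.46 and large minus small 0.057, and with the mean of all probe sets per gene 0.46 and 0.11. Of the 44 tested members 15, 8 and 6 changed sign with median, quantile and cyclic loess scaling, all from above to below 0. Among the members named by the rule these were *Rpl11* (-0.12), *Rps6* (-0.092), *Rps27l* (-0.13), *Rpl37-ps2* (-0.35) and *Rpl13a* (-0.40, adjusted p = 0.0349) with median scaling, *Rps27l* (-0.056), *Rpl37-ps2* (-0.18) and *Rpl13a* (-0.14) with quantile scaling, and *Rps27l* (-0.099), *Rpl37-ps2* (-0.25) and *Rpl13a* (-0.11) with cyclic loess. Leaving out each CR array gave -0.061 (without the 30% array) to 0.256 for *Rpl37-ps2* and -0.0042 (without the 30% array) to 0.094 for *Rpl13a*. The cause of these shifts was not tested. With 1 control array, no setting could leave the control out of the comparison with CR. No paired analysis was possible because each group has 1 array.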
